A study of Mus musculus with 12 samples.

Results

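Messenger RNA of 35 genes of sterol synthesis and lipid transport was examined in the hippocampus of *Fmr1* KO and wild-type (WT) mice after Nutlin-3 or vehicle. The genes were a fixed list matched by symbol to the Ensembl identifiers of the count tables, and all 35 were found among the 55421 genes listed and among the 22592 genes with over 20 counts in total that were tested. By role they comprised 6 enzymes of the mevalonate pathway, 9 enzymes from squalene to cholesterol, 5 genes of sterol sensing, 2 lipid carriers, 5 genes of efflux, nuclear receptors and clearance, 3 lipoprotein receptors, and 5 genes of esterification, the lysosome and intracellular transfer.

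The 12 libraries came from 12 mice, 3 in each of 4 groups named by genotype and treatment (KO-Nut3, KO-Veh, WT-Nut3, WT-Veh). All mice were of C57B/L6 background, and mice labelled as KO for *Fmr1*, the fragile X gene, were compared with WT mice, littermates according to the study's text. Nutlin-3, an inhibitor of the MDM2 and p53 interaction, or its vehicle was injected intraperitoneally at 2 months of age, and the hippocampus was dissected at 6 months, so that the comparisons of Nutlin-3 with vehicle ask what remained long after the treatment. Libraries are named by the number in their labels (RH1 and so on), which is read here as an animal number. The labels do not state this reading. Each library held between 17150820 and 20040482 reads counted on genes.

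The brain makes nearly all of its own cholesterol, since lipoproteins of the blood do not cross the blood-brain barrier. Astrocytes supply neurons with sterol on particles of APOE, neurons take these up through receptors of the LDL receptor family, and the neuronal hydroxylase encoded by *Cyp46a1* turns excess cholesterol into an oxysterol that can leave the brain. When sterol in the membrane of the endoplasmic reticulum is low, SCAP escorts SREBP factors to the Golgi for cleavage, and the released factors switch on the genes of synthesis and uptake, often together with the CCAAT-binding factor NF-Y, while INSIG proteins hold SCAP back when sterol is plentiful.

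Promoter sequences are shown because the synthesis genes moved together between libraries, as described further on. RefSeq windows of the 250 bases before a transcript start (GRCm38.p6) were matched for 12 of the 15 synthesis enzymes and for 17 of the other 20 members. The CCAAT box, searched as CCAAT on either strand (ATTGG on the other), was in at least 1 window of all 12 matched synthesis enzymes and of 9 of the 17 other members, against 37.5% of the 27025 genes with a window. The sterol regulatory element core, searched as TCACNCCAC on either strand (GTGGNGTGA on the other), was found in *Hmgcs1* alone among the 29 matched members and in 1.22% of all genes. Only exact matches were counted, so a site with other letters, or one outside the window, was missed. The 4 windows below are those of synthesis enzymes that hold a CCAAT box and no base of an annotated exon. Capitals mark CCAAT or ATTGG, and in *Hmgcs1* also the single match to the sterol regulatory element core, which overlaps no CCAAT box. All 4 are written 5′ to 3′ on the strand of the gene, for *Hmgcs1* at chr13:119690101-119690350 (plus strand), *Mvd* at chr8:122443423-122443672 (minus), *Pmvk* at chr3:89454291-89454540 (plus) and *Sc5d* at chr9:42264301-42264550 (minus).
Hmgcs1: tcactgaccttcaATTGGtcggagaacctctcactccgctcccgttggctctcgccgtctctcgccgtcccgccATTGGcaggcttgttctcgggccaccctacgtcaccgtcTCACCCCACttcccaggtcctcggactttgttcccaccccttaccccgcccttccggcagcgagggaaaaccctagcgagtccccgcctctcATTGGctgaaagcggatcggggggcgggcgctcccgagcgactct
Mvd: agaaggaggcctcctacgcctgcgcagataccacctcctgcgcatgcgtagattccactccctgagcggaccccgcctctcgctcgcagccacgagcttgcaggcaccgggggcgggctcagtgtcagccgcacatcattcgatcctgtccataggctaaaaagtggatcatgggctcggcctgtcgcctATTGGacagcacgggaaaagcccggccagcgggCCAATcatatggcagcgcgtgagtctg
Pmvk: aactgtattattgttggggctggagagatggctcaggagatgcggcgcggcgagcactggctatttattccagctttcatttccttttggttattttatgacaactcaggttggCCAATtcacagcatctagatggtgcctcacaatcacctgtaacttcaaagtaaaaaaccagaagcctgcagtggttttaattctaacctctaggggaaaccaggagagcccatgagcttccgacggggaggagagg
Sc5d: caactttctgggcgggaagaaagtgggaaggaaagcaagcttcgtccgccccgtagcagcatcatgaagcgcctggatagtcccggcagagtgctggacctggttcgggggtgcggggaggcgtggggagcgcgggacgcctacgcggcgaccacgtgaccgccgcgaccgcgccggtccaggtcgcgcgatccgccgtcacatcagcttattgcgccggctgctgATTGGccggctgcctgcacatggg
These matches describe letters in a window and say nothing of whether a factor was bound. Their part in the shared movement of the synthesis genes was not tested. The *Hmgcs1* window held 3 CCAAT boxes, that of *Mvd* 2, and those of *Pmvk* and *Sc5d* 1 each.

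*Fmr1* was measured first as a check of the labels. It stood at 79.5, 75.3 and 77.7 CPM (reads on the gene relative to the TMM-scaled library size) in WT-Veh, 75.2, 74.0 and 78.3 in WT-Nut3, 32.7, 32.5 and 37.3 in KO-Veh, and 30.6, 28.5 and 35.7 in KO-Nut3. Every KO library was below every WT library, and none was at 0. Over both treatments *Fmr1* was lower in KO by 1.22 on the log2 scale (SE 0.055, n = 6 per genotype, adjusted *P* = 1.7e-08 with the quasi-likelihood test of edgeR). Markers of hippocampal pyramidal neurons were present in every library, the mean log2 CPM of their 8 genes lying between 6.02 in RH6 and 6.74 in RH2.

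Some libraries stood apart before any member was compared. The 12 choroid plexus markers, whose most abundant gene was *Ttr*, summed to 4789 CPM in RH9 of WT-Nut3, and to 3577, 387 and 5128 CPM in RH6, RH8 and RH13 of KO-Nut3, against 32.8 to 57.8 CPM in the other 8 libraries. The 12 meningeal fibroblast markers, led by *Dcn*, summed highest in RH8 at 260.1 CPM and in RH5 at 202 CPM, and to between 64.5 and 135 CPM elsewhere. RH6 also had the lowest pyramidal neuron score and the highest thalamus score, 4.79 in mean log2 CPM against 3.44 to 3.91 in the other libraries. In RH2 the 12 oligodendrocyte markers were lowest, 6.90 in mean log2 CPM against 7.15 to 7.69. Whether these differences between libraries had a part in the results below was not tested except where a fit with the score is given. In whole tissue, fewer cells of a type and less RNA per cell cannot be told apart.

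Per length of exon, as CPM per kilobase (RPKM, mean ± SD over 12 libraries), *Apoe* was by far the most abundant member at 749.8 ± 40.4. It was followed by *Apod*, which encodes a lipocalin that carries small lipids, at 48.01 ± 11.7, *Cyp46a1* at 41.9 ± 3.47, the APOE receptor gene *Lrp1* at 37.1 ± 3.36, *Srebf2* at 33.6 ± 1.62 and *Hmgcs1* at 30.6 ± 2.33. In 27 more members the level lay between 3.35 RPKM for *Lipa* and 19.5 for *Insig1*, and the lowest were *Nr1h3*, which encodes an oxysterol-sensing nuclear receptor, at 1.40 ± 0.213 and *Fdps* at 0.237 ± 0.0786. *Fdps* is uncertain: it had 222 counts over all 12 libraries, and 26.7% of its exon bases are shared with the overlapping gene *Gm43738* on the same strand, where a read that fits both is counted for neither. Apart from *Apoe*, *Nr1h3* and *Fdps*, neighbours in the order of levels had overlapping ranges over the 12 libraries. Counting without strand also leaves reads in exon bases shared with a gene on the other strand impossible to assign, which concerns 18.3% of the exon bases of *Fdft1*, 13.2% of *Scap*, 12.1% of *Hmgcs1* and 5.31% of *Npc1*.

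The within-group SD of log2 CPM had a median of 0.109 over the members, against 0.106 over the 10810 genes with a mean log2 CPM above 3. *Srebf2*, *Cyp46a1* and *Lrp8* varied least, at 0.055, 0.058 and 0.059, and *Fdps*, *Apod*, *Insig1*, *Lipa* and *Npc2* most, at 0.489, 0.339, 0.253, 0.221 and 0.206. The heat map of the 35 members shows both kinds of rows, pale and even for *Srebf2* and *Lrp8*, and strongly coloured in single libraries for *Fdps* and *Apod*.

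**Figure D1:**
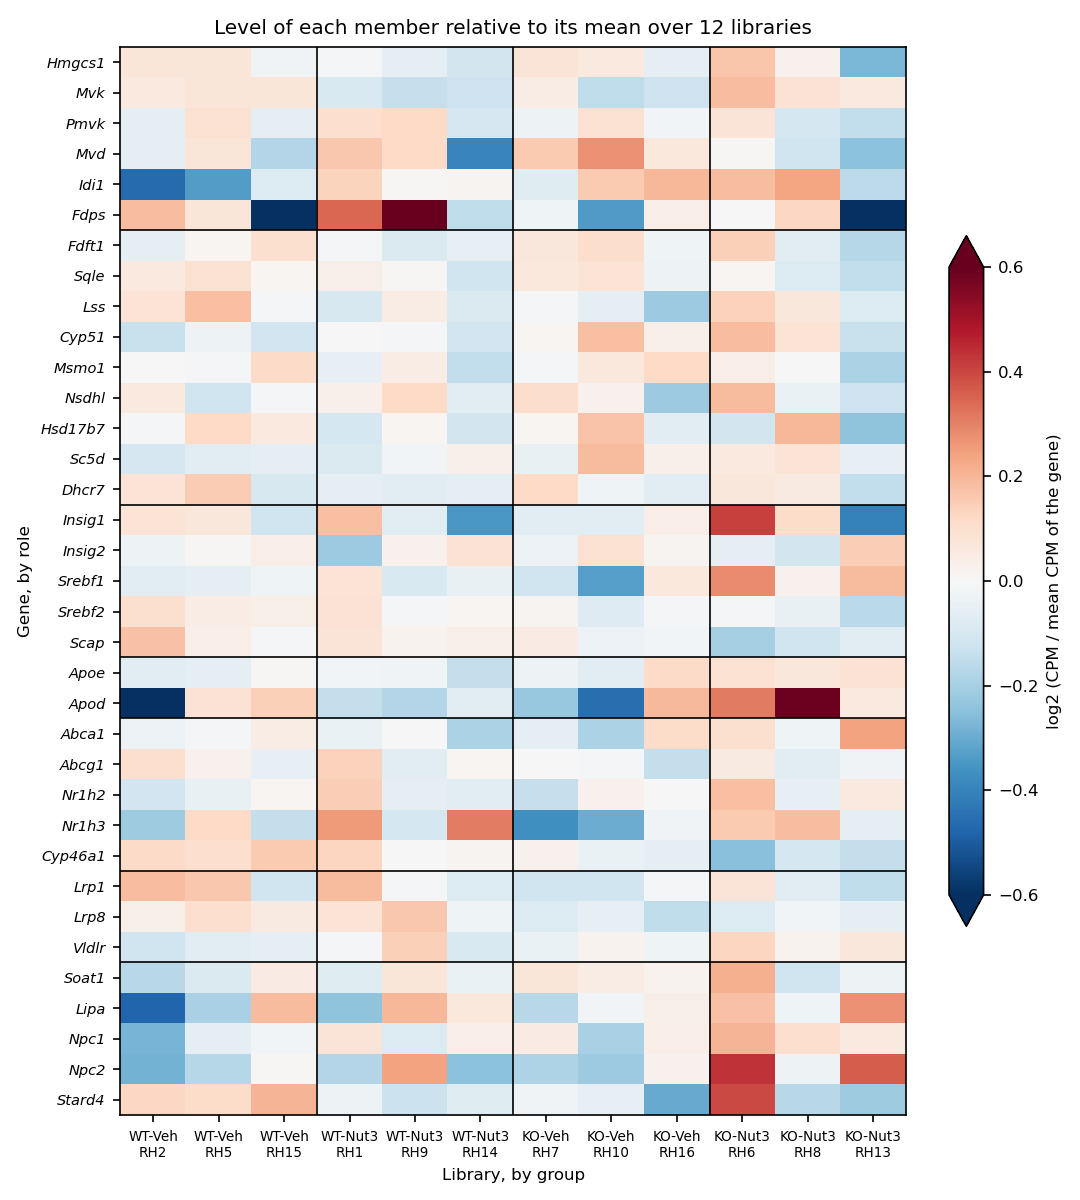
Level of each of the 35 members (rows, by role) in each of the 12 libraries (columns, by group), as the log2 of its CPM over the mean CPM of that gene in all 12 libraries; colours are cut at ±0.6. In KO-Nut3, library RH13 is blue for 14 of the 15 synthesis enzymes at the top, while RH6 is mostly red.

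No member passed the threshold in any of the 9 comparisons (Benjamini-Hochberg adjusted *P* under 0.05 over all 22592 genes, quasi-likelihood test of edgeR). The share of all genes that passed was 0.199% for treated against vehicle KO mice (KO-Nut3 against KO-Veh), 0.0177% for vehicle KO against vehicle WT and 0.00443% for treated KO against either WT group. Over both treatments it was 0.00443% for the genotype. It was 0% for Nutlin-3 within WT, for Nutlin-3 over both genotypes and for the interaction of genotype with treatment. As a technical comparison, animal numbers from RH9 on were set against those up to RH8, and 0.199% of all genes passed. The cut was not set in advance but placed where mapping was known to differ. Up to RH8, the share of multimapping reads (those matching the genome at multiple sites) lay between 3.07% in RH1 and 3.22% in RH2. From RH9 on this share was higher in every library, between 3.33% in RH10 and 3.55% in RH15.

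With limma-voom the count of members was 0 throughout as well, where at most 0.133% of all genes passed, between the animal numbers. With DESeq2 it was 1 for treated KO against vehicle WT (0.965% of all genes), 1 for the genotype over both treatments (0.204%), 1 for the animal numbers (0.478%) and 0 in the other 6 comparisons. In those 6 the share of all genes was 1.08% for Nutlin-3 within KO, 0.12% for the genotype under vehicle, 0% for Nutlin-3 within WT, 0.031% for the genotype under Nutlin-3, 0.35% for Nutlin-3 over both genotypes and 0.00443% for the interaction.

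At an unadjusted *P* under 0.05 with edgeR, 5 members stood out for Nutlin-3 within KO (14.3%, against 7.6% of all genes) and 2 within WT (5.71%, against 3.17%). For the genotype there were 7 under vehicle (20%, against 7.2%), 4 under Nutlin-3 (11.4%, against 4.87%) and 6 over both treatments (17.1%, against 8.16%). Treated KO against vehicle WT gave 7 (20%, against 9.17%), Nutlin-3 over both genotypes 7 (20%, against 7.29%), the interaction 2 (5.71%, against 4.17%) and the animal numbers 7 (20%, against 9.54%). The share among members was thus above that of all genes in each comparison, the split by animal number included, and several of these comparisons share libraries. The median absolute log2 fold change of the members was 0.101 in KO-Nut3 against KO-Veh, against 0.15 over all genes, and 0.072 in KO against WT, against 0.103. All genes include more low counts, with a median within-group SD of log2 CPM of 0.23 against 0.109 for the members.

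Groups of 3 libraries that did not overlap were counted in the 5 pairwise comparisons made. For Nutlin-3 this held for 6 members within KO (17.1%, against 13.3% of all genes) and 3 within WT (8.57%, against 7.52%). For the genotype it held for 10 under vehicle (28.6%, against 12.4%) and 6 under Nutlin-3 (17.1%, against 10.6%), and for treated KO against vehicle WT it held for 10 (28.6%, against 15% of all genes). With 6 libraries a side, no member was apart in KO against WT (0.536% of all genes) or in Nut3 against Veh (0.243%), and *Insig2* alone was apart between the animal numbers (0.925%).

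**Figure D2:**
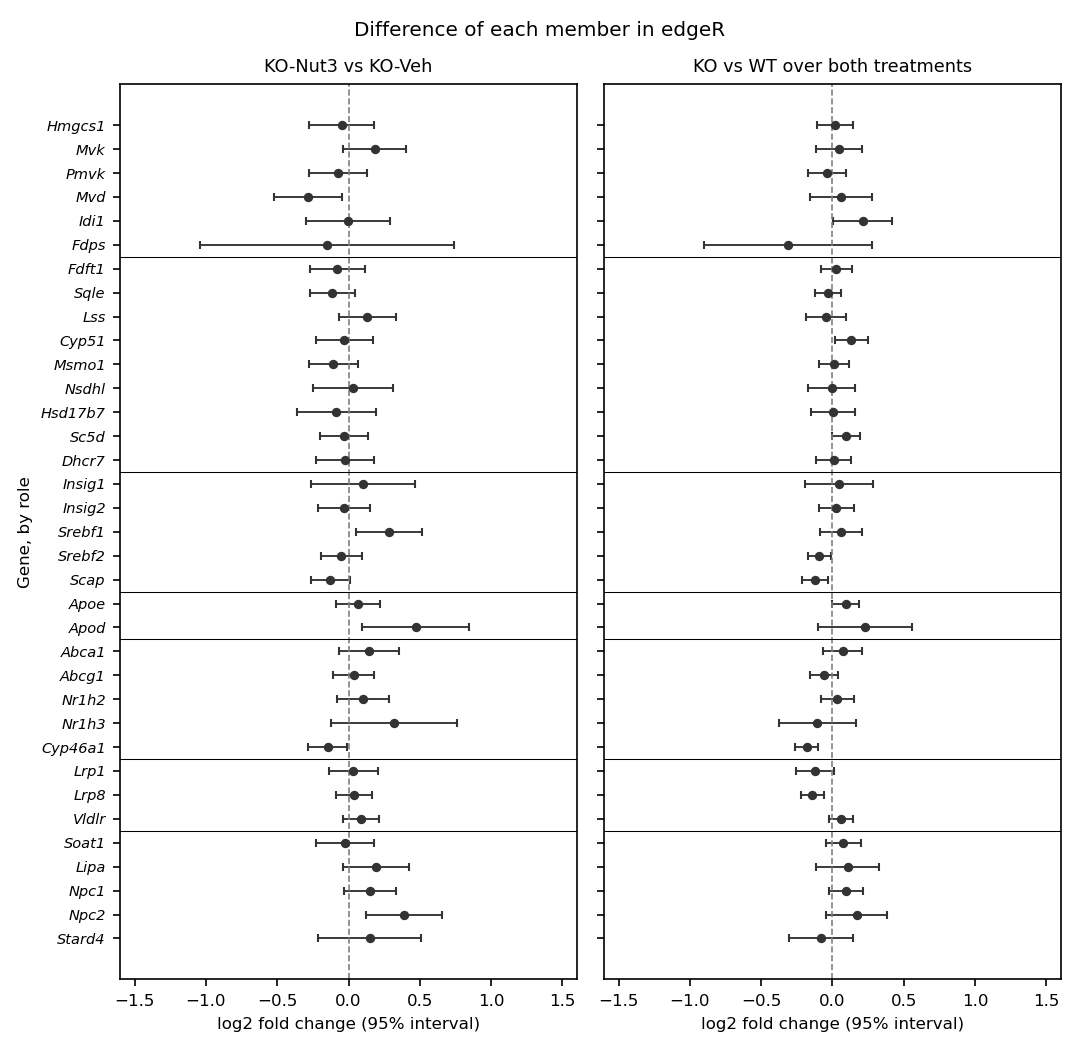
log2 fold change (points) with its 95% interval from edgeR (bars) for the 35 members, by role, in KO-Nut3 against KO-Veh (left, n = 3 per group) and in KO against WT over both treatments (right, n = 6 per genotype). Most intervals include 0; *Cyp46a1* and *Lrp8* lie below 0 on the right, *Npc2* and *Apod* above 0 on the left, and *Fdps* has the widest interval.

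The intervals bound what could have been missed. In KO-Nut3 against KO-Veh the 95% interval of 28 of the 35 members lay within 0.5 of 0 on the log2 scale and that of 34 within 1, and in KO against WT 33 lay within 0.5 and all 35 within 1. The widest in both was that of *Fdps*.

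*Cyp46a1*, on chr12:108334381-108362234, had the smallest *P* of the members in KO against WT. Its level was 149, 148 and 153 CPM in WT-Veh (RH2, RH5, RH15), 151, 138 and 139 in WT-Nut3 (RH1, RH9, RH14), 140.4, 134 and 132 in KO-Veh (RH7, RH10, RH16), and 116, 128 and 125 in KO-Nut3 (RH6, RH8, RH13). All KO-Nut3 libraries lay below all 9 others, and KO-Veh lay below WT-Veh without overlap, while KO-Veh and WT-Nut3 overlapped. The group means ± SD were 150.2 ± 2.98, 143 ± 6.95, 136 ± 4.20 and 123 ± 6.38 CPM (n = 3 each).

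In KO against WT over both treatments *Cyp46a1* was lower by a log2 fold change of -0.18 (SE 0.038, 95% interval -0.26 to -0.10), with an adjusted *P* of 0.313 in edgeR and 0.0077 in DESeq2. The difference was -0.22 among animal numbers up to RH8 and -0.14 among those from RH9, with 3 libraries a side in each. In Nut3 against Veh over both genotypes *Cyp46a1* differed by -0.11 (adjusted *P* = 0.487 with edgeR), with values from -0.13 to -0.04 over the alternatives. KO-Nut3 differed from WT-Veh by -0.29 (SE 0.06, adjusted *P* = 0.185 in edgeR and 0.0449 in DESeq2), from KO-Veh by -0.14 (adjusted *P* = 0.630, and -0.06 once the choroid plexus score was added) and from WT-Nut3 by -0.22 (adjusted *P* = 0.928), and KO-Veh from WT-Veh by -0.15 (adjusted *P* = 0.629), all with edgeR unless named. In KO against WT the 8 pyramidal neuron markers moved the same way, all 8 below 0 with a median of -0.15. Of these, 3 had an unadjusted *P* under 0.05 with edgeR, against 8.16% of all genes. In KO-Veh against WT-Veh 5 markers were below 0 and 3 above, with a median of -0.05. The mean of the 8 markers was lowest in RH6, the library with the lowest *Cyp46a1*. Their part in the *Cyp46a1* difference was not tested.

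**Figure D3:**
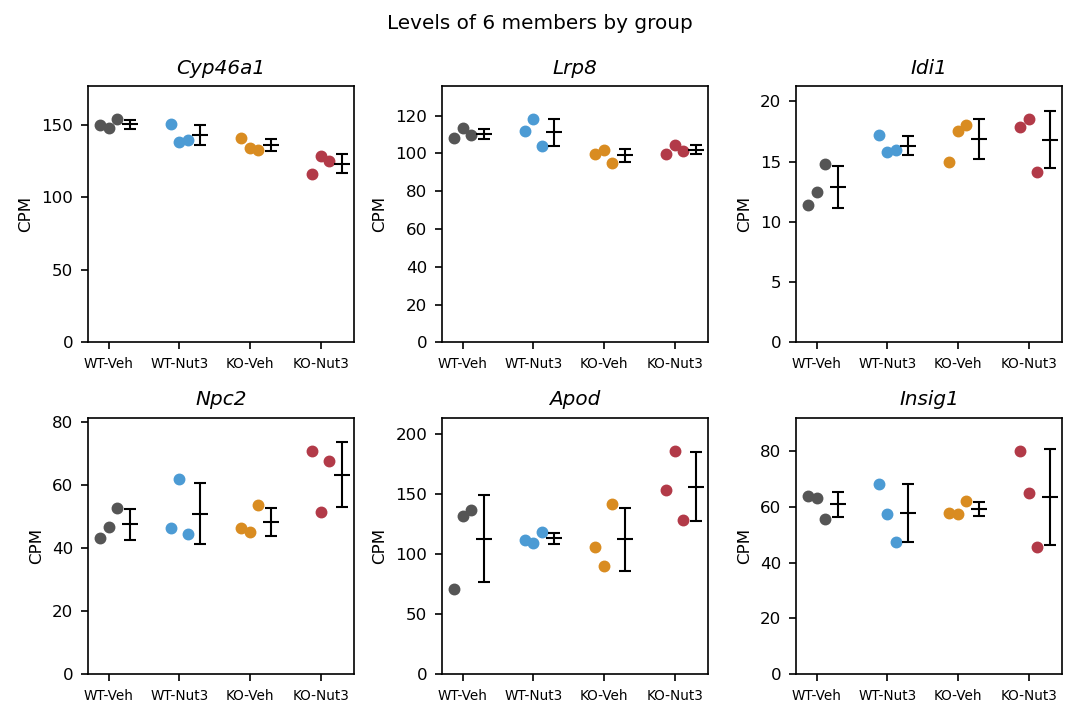
CPM of 6 members in the 4 groups; points are libraries in order of animal number, and the bar beside them is the mean ± SD (n = 3), on axes that start at 0. *Cyp46a1* steps down from WT-Veh to KO-Nut3, *Lrp8* is lower in both KO groups, *Idi1* is lowest in WT-Veh, *Npc2* and *Apod* are spread upwards in KO-Nut3, and *Insig1* has its highest and lowest library in KO-Nut3.

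Of the 3 receptor genes, *Lrp8*, which encodes a receptor for APOE and reelin, followed next. It stood at 108, 113 and 109.7 CPM in WT-Veh, 112, 118 and 104 in WT-Nut3, 99.9, 102 and 95.1 in KO-Veh, and 99.8, 104 and 101 in KO-Nut3. Both KO groups lay below WT-Veh, and KO-Nut3 overlapped with WT-Nut3 at a single library, RH14. In KO against WT the log2 fold change was -0.14 (SE 0.038, adjusted *P* = 0.417 with edgeR), and -0.13 and -0.15 within the earlier and later animal numbers. *Lrp1*, a large endocytic receptor, was 746, 735 and 604 CPM in WT-Veh, 750.0, 654 and 621 in WT-Nut3, 604, 605 and 652 in KO-Veh, and 693, 628 and 590.0 in KO-Nut3. All groups overlapped. *Vldlr*, another receptor for APOE and reelin, ranged from 97.7 to 102 CPM in WT-Veh while KO-Nut3 spanned 108 to 116, and the log2 fold change between them was 0.16 (SE 0.058, adjusted *P* = 0.464 with edgeR) and -0.0022 once the choroid plexus score was added.

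Among the sterol sensors, *Scap* was 98.6, 89.6 and 86.8 CPM in WT-Veh, 92.1, 88.6 and 89.2 in WT-Nut3, 90.1, 85.0 and 86.1 in KO-Veh, and 76.0, 80.3 and 83.4 in KO-Nut3. KO-Nut3 lay below every other library. The log2 fold change in KO against WT was -0.12 (SE 0.042, adjusted *P* = 0.469 with edgeR), with -0.19 within the earlier and -0.06 within the later animal numbers. *Srebf2*, which encodes the SREBP factor of cholesterol synthesis, stood at 258, 249 and 247 CPM in WT-Veh, 256, 240.1 and 244 in WT-Nut3, 244, 228 and 239.6 in KO-Veh, and 239, 234 and 215 in KO-Nut3. KO-Veh and KO-Nut3 each lay below WT-Veh, and the log2 fold change in KO against WT was -0.09 (SE 0.037, adjusted *P* = 0.529 with edgeR).

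*Srebf1*, whose product acts mainly on fatty acid genes, lay the other way in KO-Nut3. Its levels were 68.0, 68.8 and 70.1 CPM in WT-Veh, 75.5, 66.9 and 69.1 in WT-Nut3, 65.7, 56.8 and 74.6 in KO-Veh, and 86.7, 72.7 and 81.3 in KO-Nut3. KO-Nut3 was above WT-Veh without overlap, whereas RH16 of KO-Veh exceeded RH8 of KO-Nut3. The log2 fold change was 0.29 against KO-Veh (SE 0.10, adjusted *P* = 0.513) and 0.22 against WT-Veh (SE 0.073, adjusted *P* = 0.403, edgeR). The latter was 0.10 once the oligodendrocyte score was added.

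The 15 synthesis enzymes showed little by group and more by library. In KO-Nut3 against KO-Veh 12 of the 15 were below 0, with a median log2 fold change of -0.05, and 1 had an unadjusted *P* under 0.05 with edgeR. Of all genes 50.8% were above 0 there, and 7.6% had such a *P*. In KO against WT 10 were above 0, with a median of 0.01, and 2 had an unadjusted *P* under 0.05 with edgeR. Of all genes 51.9% were above 0 there, and 8.16% had such a *P*. Within KO-Nut3, however, RH13 was the lowest of the 3 libraries for all 15 enzymes, and RH6 the highest for 11 and RH8 for 4. Against each gene's mean over 12 libraries, 14 of the 15 were below in RH13, but 5 in RH8 and 1 in RH6. The lean below 0 against KO-Veh thus rested on RH13. Over all 22592 genes RH13 was the lowest of its group for 33.5%. RH13 was also the lowest of all 12 libraries for 8 of the 15 enzymes. The count of 15 was the same in plain CPM and with DESeq2 size factors. This pattern was noticed in the values and was given no test.

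*Hmgcs1*, which makes the precursor of mevalonate and is the most abundant of the synthesis enzymes, is given as an example. It was 148, 148 and 138 CPM in WT-Veh, 139.9, 136 and 130.1 in WT-Nut3, 148, 147 and 135 in KO-Veh, and 158, 143 and 116 in KO-Nut3. The highest and the lowest of the 12 values both lay in KO-Nut3, in RH6 and RH13, as did those of *Fdft1*, which makes squalene. *Insig1*, itself a target of the SREBP factors and named after its values were seen, had the same extremes, with 64.0, 63.2 and 55.6 CPM in WT-Veh, 68.4, 57.7 and 47.3 in WT-Nut3, 57.8, 57.6 and 62.0 in KO-Veh, and 80.2, 65.1 and 45.6 in KO-Nut3.

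**Figure D4:**
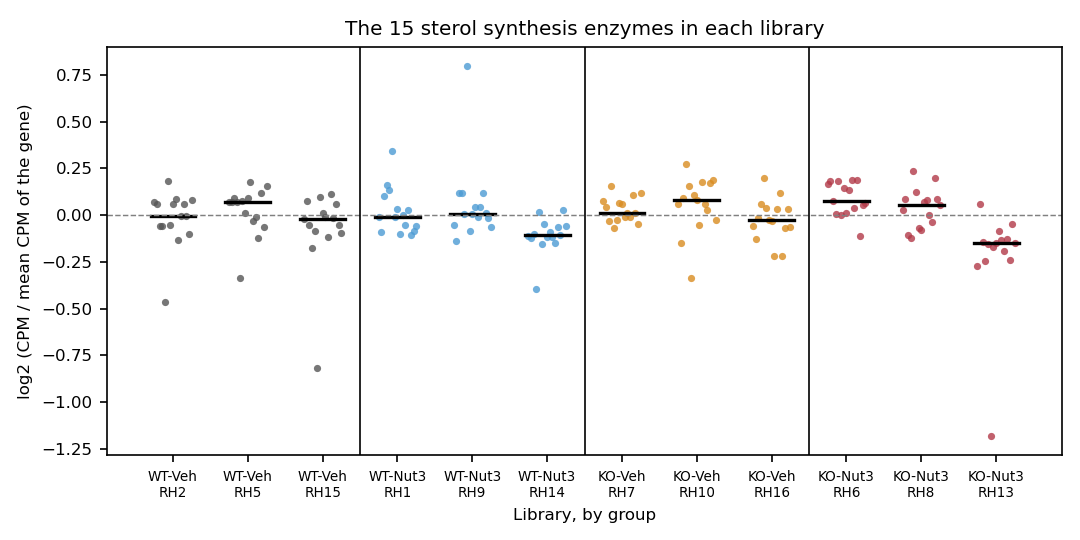
Each point is 1 of the 15 synthesis enzymes in 1 library, as the log2 of its CPM over its mean in all 12 libraries, and the black bar is the median of the 15. The median is -0.15 in RH13 and -0.11 in RH14 and lies between -0.03 and 0.08 in the other 10 libraries; the points far from the rest in RH9, RH15 and RH13 are the sparse *Fdps*.

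Relative to each gene's mean over 12 libraries, the median log2 level of the 15 enzymes was -0.15 in RH13 of KO-Nut3 and -0.11 in RH14 of WT-Nut3, while it was 0.08 in RH6 of KO-Nut3 and in RH10 of KO-Veh and 0.07 in RH5 of WT-Veh. The median of the 10810 genes above a log2 CPM of 3 lay between -0.013 and 0.014 in every library. With group means removed, the median Pearson correlation over the 105 pairs of enzymes was 0.46 across the 12 libraries, against 0.10 over the 190 pairs of the other 20 members and 0.0053 over all pairs of the 10810 genes. It was 0.42 once the block of animal numbers (up to RH8 or from RH9) was removed too. With RH6 and RH13 left out it was 0.25, the group means still being those of all 12 libraries. Both share a group and the choroid plexus signal. RH8, which remained of KO-Nut3, was still measured from a mean that held them. The value therefore does not settle how far the correlation rested on these libraries. These correlations describe 12 libraries normalized together and carry no *P*-value.

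By the median of its correlations with the other enzymes, *Hmgcs1* (0.67), *Cyp51* (0.61), *Sqle* and *Lss* (0.60 each) were most alike, and *Idi1* (0.21) and *Mvk* (0.19) least. Outside the synthesis enzymes, *Insig1* (0.56) and *Stard4* (0.51) came closest among the members, and *Insig2* (-0.36) and *Abca1* (-0.30), an exporter of cholesterol to APOE, were farthest. The genes of all 10810 with the highest median correlation outside the members were *Ube2s* (0.72), *Nop58* (0.71) and *Jag2* (0.71), none of them an enzyme of sterol synthesis.

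*Idi1*, the isomerase of isopentenyl diphosphate, had the smallest *P* of the synthesis enzymes in both comparisons with WT-Veh given here. It stood at 11.4, 12.45 and 14.8 CPM in WT-Veh, 17.2, 15.8 and 15.9 in WT-Nut3, 14.97, 17.5 and 18.1 in KO-Veh, and 17.9, 18.5 and 14.1 in KO-Nut3. WT-Veh lay below WT-Nut3 and below KO-Veh, and RH13 of KO-Nut3 lay inside the WT-Veh range. The log2 fold change was 0.38 in KO-Veh against WT-Veh (SE 0.13, adjusted *P* = 0.610) and 0.34 in WT-Nut3 against WT-Veh (SE 0.12, adjusted *P* = 0.998, both edgeR). These comparisons share the WT-Veh libraries, so the same low WT-Veh values enter both, and the second was 0.21 once the oligodendrocyte score was added. Without strand, reads of *Idi1* cannot be told apart from those of *Gm48574* on the other strand, which shares 9.22% of its exon bases.

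*Mvk*, the mevalonate kinase, was 18.6, 18.8 and 18.9 CPM in WT-Veh, 16.8, 16.2 and 16.4 in WT-Nut3, 18.5, 16.1 and 16.4 in KO-Veh, and 20.4, 19.0 and 18.7 in KO-Nut3. Nut3 libraries were all below vehicle in WT and all above vehicle in KO. The interaction was 0.37 on the log2 scale (SE 0.12, unadjusted *P* = 0.008, adjusted *P* = 0.994 with edgeR). *Mvd*, the decarboxylase that makes isopentenyl diphosphate, was 18.0 to 20.9 CPM in KO-Veh and 14.6 to 17.4 in KO-Nut3, a log2 fold change of -0.29 (SE 0.11, adjusted *P* = 0.557 with edgeR), and -0.46 once the fibroblast score was added.

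Past squalene, *Sc5d*, a desaturase near the end of the pathway, was the most abundant per length, at 71.9, 73.7 and 74.3 CPM in WT-Veh, 72.6, 76.2 and 78.7 in WT-Nut3, 74.7, 87.8 and 78.8 in KO-Veh, and 80.2, 81.7 and 74.5 in KO-Nut3. Each KO group lay above WT-Veh, by less than 1 CPM at the nearest libraries, and overlapped with WT-Nut3. *Cyp51*, the sterol demethylase, was 55.9 to 60.0 CPM in WT-Veh and 61.9 to 69.5 in KO-Veh, and its log2 fold change in KO against WT was 0.13 (SE 0.054, adjusted *P* = 0.548 with edgeR). The remaining enzymes, *Pmvk*, *Fdft1*, *Sqle*, *Lss*, *Msmo1*, *Nsdhl*, *Hsd17b7* and *Dhcr7*, each spanned less than 1.5-fold between their lowest and highest library.

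Both lipid carriers were highest on average in KO-Nut3. *Apoe* was 1529, 1546 and 1613 CPM in WT-Veh, 1586, 1579.8 and 1453 in WT-Nut3, 1572, 1534 and 1737 in KO-Veh, and 1707, 1680.5 and 1699.8 in KO-Nut3. KO-Nut3 was above both WT groups and overlapped with KO-Veh, whose RH16 was the highest of all. *Apod*, on chr16:31296192-31314808, was 71.1, 131 and 136 CPM in WT-Veh, 112, 109 and 118 in WT-Nut3, 106, 90.4 and 141 in KO-Veh, and 154, 186 and 129 in KO-Nut3. KO-Nut3 was above WT-Nut3 without overlap and overlapped with both vehicle groups.

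The log2 fold change of *Apod* was 0.47 in KO-Nut3 against KO-Veh (SE 0.17, adjusted *P* = 0.503) and 0.46 against WT-Nut3 (SE 0.12, adjusted *P* = 0.928, edgeR). Among animal numbers up to RH8 the difference from KO-Veh was 0.68 (2 libraries against 1) and among those from RH9 it was 0.19 (1 against 2). The library with the most *Apod*, RH8, had the highest meningeal fibroblast score, and the one with the least, RH2, had the lowest oligodendrocyte score. All 12 oligodendrocyte markers and 11 of the 12 fibroblast markers were above 0 in KO-Nut3 against KO-Veh, with medians of 0.21 and 1.37. In fits of all 12 libraries the log2 fold change of *Apod* against KO-Veh was 0.15 with the fibroblast score as a term, 0.28 with the oligodendrocyte score and 0.58 with the choroid plexus score, and against WT-Nut3 it was 0.09 with the fibroblast score. The part of these cell types in the *Apod* difference was not tested beyond these fits.

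*Npc2*, a soluble protein that hands cholesterol to NPC1 in the lysosome, lies on chr12:84754562-84773152. It was 43.2, 46.6 and 52.9 CPM in WT-Veh, 46.5, 62.0 and 44.4 in WT-Nut3, 46.3, 45.2 and 53.6 in KO-Veh, and 70.9, 51.4 and 67.7 in KO-Nut3. Its 3 highest libraries, RH6, RH13 and RH9, were the 3 with the highest sums of choroid plexus markers, and RH9 belongs to WT-Nut3. The log2 fold change was 0.39 in KO-Nut3 against KO-Veh (SE 0.12, 95% interval 0.12 to 0.65, adjusted *P* = 0.391) and 0.41 against WT-Veh (SE 0.12, adjusted *P* = 0.340, edgeR). Without RH8 both passed in edgeR, at adjusted *P*-values of 0.0344 and 0.0444, where the share of all genes that passed was 1.18% and 0.872%. Once the choroid plexus score was added to a fit of all 12 libraries they were -0.07 and -0.09.

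**Figure D5:**
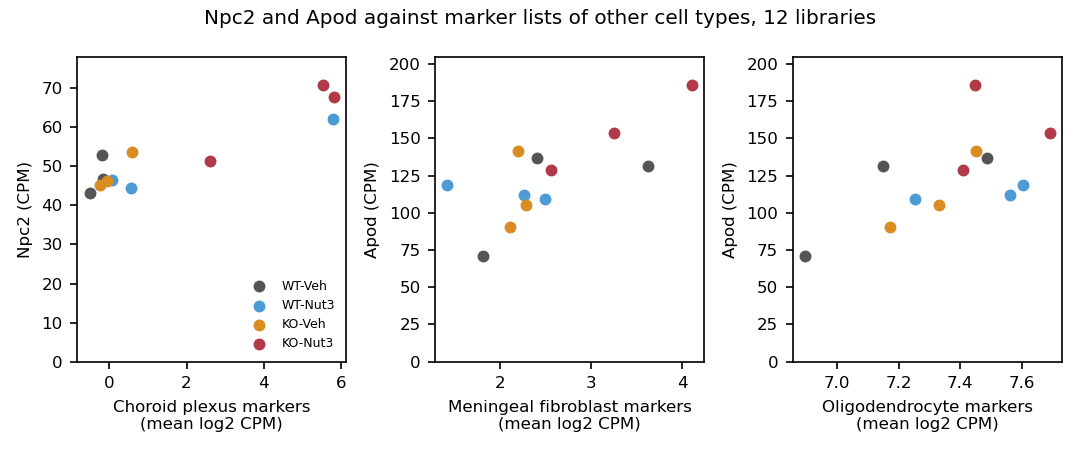
*Npc2* against the mean log2 CPM of 12 choroid plexus markers (left), and *Apod* against that of 12 meningeal fibroblast markers (middle) and 12 oligodendrocyte markers (right); each point is 1 of the 12 libraries, coloured by group. The 3 libraries with a choroid plexus score above 5 have the most *Npc2*, RH8 of KO-Nut3 is highest in *Apod* and in the fibroblast score, and RH2 of WT-Veh is lowest in *Apod* and in the oligodendrocyte score.

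The lysosomal membrane partner *Npc1* was 52.1, 60.6 and 62.4 CPM in WT-Veh, 66.7, 59.7 and 65.0 in WT-Nut3, 65.3, 55.1 and 64.9 in KO-Veh, and 72.8, 67.7 and 65.8 in KO-Nut3. KO-Nut3 was above both vehicle groups without overlap. The log2 fold change in Nut3 against Veh was 0.14 (SE 0.057, adjusted *P* = 0.602 with edgeR), 0.22 within the earlier and 0.06 within the later animal numbers, and 0.03 once the oligodendrocyte score was added.

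*Stard4*, a carrier of sterol between membranes, was 24.1, 23.8 and 25.4 CPM in WT-Veh, 21.6, 20.2 and 20.98 in WT-Nut3, 21.8, 21.4 and 17.9 in KO-Veh, and 29.1, 19.6 and 19.1 in KO-Nut3. WT-Veh was above WT-Nut3 and KO-Veh without overlap, and RH6 of KO-Nut3 exceeded every other library. Its log2 fold change was -0.26 in KO-Veh against WT-Veh (SE 0.098, adjusted *P* = 0.631) and -0.22 in WT-Nut3 against WT-Veh (SE 0.084, adjusted *P* = 0.998, edgeR). The first was -0.17 without RH16 of KO-Veh.

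*Lipa*, the lysosomal acid lipase, had the smallest *P* of the members between the animal numbers. It was 16.4, 19.9 and 25.9 CPM in WT-Veh, 19.2, 26.1 and 23.7 in WT-Nut3, 20.2, 22.5 and 23.3 in KO-Veh, and 25.7, 22.3 and 27.5 in KO-Nut3. In each group the library or libraries from RH9 on were above those up to RH8, although RH6 of KO-Nut3 exceeded RH14, RH16 and RH10 of other groups. With groups held constant the later numbers were higher by a log2 fold change of 0.32 (SE 0.077, adjusted *P* = 0.193 in edgeR and 0.0498 in DESeq2). *Insig2* was higher there by 0.16 (SE 0.047, adjusted *P* = 0.287) and *Insig1* lower by 0.30 (log2 fold change -0.30, SE 0.096, adjusted *P* = 0.354), and *Hmgcs1* and *Dhcr7* both had a log2 fold change of -0.15 (adjusted *P* = 0.397 and 0.388, edgeR). Without RH13 those of *Insig1* and *Hmgcs1* were -0.18 and -0.08. The labels give the numbers, assumed here to be of animals, and no batch, and both blocks hold libraries of all 4 groups.

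Of the other members, *Soat1*, which esterifies cholesterol, the transporters *Abca1* and *Abcg1* and the oxysterol receptor *Nr1h2* had overlapping groups in all 5 pairwise comparisons. *Nr1h3* was measured at 2.74 to 4.37 CPM, and its log2 fold change in Nut3 against Veh was 0.28 (SE 0.13, adjusted *P* = 0.671 with edgeR), 0.43 once the choroid plexus score was added and 0.17 with the oligodendrocyte score.

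A second list held 36 further genes of sterol metabolism, of which 35 were tested, and another held 16 genes of fatty acid synthesis. None of either list passed in any of the 9 comparisons with edgeR. In KO-Nut3 against KO-Veh, where 7.6% of all genes had an unadjusted *P* under 0.05, 3 of the 35 had one and were higher and none was lower, and 2 of the 16 were higher and none lower. In KO against WT, where 8.16% of all genes had one, the counts were 1 higher and 0 lower of the 35, and 2 higher and 1 lower of the 16. The median log2 fold changes were 0.001 and 0.02 in KO-Nut3 against KO-Veh, against 0.003 over all genes.

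*Pltp*, a phospholipid transfer protein, came closest, at 37.1, 46.4 and 47.4 CPM in WT-Veh, 42.0, 53.5 and 38.7 in WT-Nut3, 37.4, 31.2 and 42.0 in KO-Veh, and 63.1, 49.4 and 64.3 in KO-Nut3. Its log2 fold change against KO-Veh was 0.67 (SE 0.13, adjusted *P* = 0.0908 with edgeR), and its 3 highest libraries were again RH13, RH6 and RH9. *Cyp27a1*, a sterol hydroxylase, was 3.72 to 3.97 CPM in KO-Veh and 5.22 to 9.65 in KO-Nut3 (log2 fold change 0.87, SE 0.23, adjusted *P* = 0.274 with edgeR). The acetyl-CoA carboxylase gene *Acacb* was 5.81 to 8.83 and 8.48 to 19.1 CPM (log2 fold change 0.99, SE 0.27, adjusted *P* = 0.295), highest in RH6, RH13 and RH9, and the desaturase gene *Scd1* was 138 to 151 and 155 to 235 CPM (log2 fold change 0.35, SE 0.14, adjusted *P* = 0.603, all edgeR).

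In KO against WT, *Fasn*, the fatty acid synthase, differed by -0.17 on the log2 scale (SE 0.047, adjusted *P* = 0.417) and *Fads1*, a desaturase of polyunsaturated fatty acids, by 0.14 (SE 0.052, adjusted *P* = 0.513), while *Cyp27a1* differed by 0.36 (SE 0.16, adjusted *P* = 0.597) and *Nceh1*, a cholesteryl ester hydrolase, by -0.07 (SE 0.037, adjusted *P* = 0.650, all edgeR). In RH13, 12 of the 35 further sterol genes were the lowest of KO-Nut3 (34.3%), close to the 33.5% of all genes.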

How the data were processed

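Polyadenylated RNA of 12 hippocampi was sequenced, and the authors aligned the reads to mm10 with STAR, whose version is not given in the sources used here. The deposited tables hold raw read counts per gene, of which the unstranded column was used; the columns for either strand held nearly equal counts, so antisense and overlapping genes could not be separated. Between 77.4% and 78.8% of the reads in a table were counted on genes, and each library is 1 animal, and 3 animals a group limit the precision. Samples were grouped by the labels.

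Genes with over 20 counts in total were kept. TMM-normalized counts were tested with the quasi-likelihood test of edgeR 4.0.16 (R 4.3.3), two-sided, with Benjamini-Hochberg adjustment over the 22592 genes. Pairwise comparisons used the 6 libraries of their groups, and the others all 12. The alternatives were DESeq2 1.42.0, limma-voom (limma 3.58.1), other filters and normalizations, and leaving out each library. Marker scores, or the block of animal numbers (up to RH8 or from RH9), were also added as terms. The fit was tested on simulated data first. Log2 CPM used a prior count of 1, and exon lengths came from the GENCODE M21 annotation.

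The members, the lists and the cut between RH8 and RH9 were chosen with earlier results of these data known. Values in every library are given for members past an adjusted P of 0.05 in edgeR or DESeq2, the 3 members with the smallest P in each pairwise comparison and in those of genotype and treatment over 12 libraries, and the most abundant member of each role; *Insig1*, *Insig2* and the other members that are named were chosen after their values were seen. Some genes of the further sterol list are not reported here by name.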

Additional observations from a re-analysis of the deposited data

Results flagged for a closer look

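*Mvk*, the mevalonate kinase gene, was singled out because the treatment went opposite ways in the genotypes. All 3 Nutlin-3 libraries of WT lay below all 3 vehicle libraries (16.2 to 16.8 against 18.6 to 18.9 CPM), and all 3 of KO lay above them (18.7 to 20.4 against 16.1 to 18.5 CPM). The interaction was 0.37 on the log2 scale (SE 0.12, 95% interval 0.11 to 0.63) with an unadjusted *P* of 0.008 and an adjusted *P* of 0.994 in edgeR, so that it did not pass over all genes. No test for a single outlying library was made within groups of 3, although each library was left out in turn.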

How the results depend on the processing

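The count of members past the threshold was 0 in every comparison of the main analysis and in 85 of the 94 alternatives that kept all libraries. With every gene of at least 1 count it was 2 in KO-Nut3 against KO-Veh (*Npc2* and *Apod*, beside 1.51% of all genes), 2 in KO-Nut3 against WT-Veh (*Npc2* and *Cyp46a1*, 1.16%), 1 in KO-Nut3 against WT-Nut3 (*Apod*, 0.106%), 1 in the interaction (*Apod*, 0.81%), 1 in Nut3 against Veh (*Npc2*, 1.5%) and 2 between animal numbers (*Insig1* and *Lipa*, 1.75%). With DESeq2 it was 1 in KO-Nut3 against WT-Veh, 1 in KO against WT (both *Cyp46a1*) and 1 between animal numbers (*Lipa*). Leaving out 1 library gave counts from 0 to 1 in KO-Nut3 against KO-Veh and from 0 to 1 in KO-Nut3 against WT-Veh, the 1 being *Npc2* without RH8 of KO-Nut3 (log2 fold change 0.51 and 0.54, beside 1.18% and 0.872% of all genes), and 0 in every other comparison. The causes of these changes were not tested.

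Of the named members' log2 fold changes, 502 alternative values kept direction and side of the threshold, 11 passed it and 5 reversed, and of those without 1 library 430 kept both and 2 passed. The reversals came with the choroid plexus score added as a term: *Npc2* was -0.069 in KO-Nut3 against KO-Veh, -0.085 against WT-Veh and -0.13 in Nut3 against Veh, and *Vldlr* was -0.0022 and -0.0049 in the latter pair of comparisons. Over the alternatives the adjusted *P* ranged from 0.0077 to 0.823 for *Cyp46a1* in KO against WT, and from 0.0168 to 0.999 for *Npc2* and 0.0050 to 0.999 for *Apod* in KO-Nut3 against KO-Veh (edgeR, DESeq2 or limma). All genes called in that comparison numbered 45 in the main analysis, 244 with DESeq2 and 19 with limma-voom. They numbered 544 with every gene of at least 1 count, 20 with the block of animal numbers as a term and 1 with the oligodendrocyte score. With the choroid plexus or fibroblast score, or with all 12 libraries in the fit, the number was 0. Without 1 library the number ranged from 6 (without RH7 or RH10) and 7 (without RH16) to 266 (without RH8).

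The median correlation of the synthesis enzymes was 0.25 with RH6 and RH13 left out after group means over all libraries were removed. That alternative, the fibroblast score and the other scalings of the RH13 count were chosen after seeing the data. No paired analysis was possible because each animal number occurs in 1 group only. With 3 animals a group the precision is that of the intervals given above, and *Fdps* and *Nr1h3* were limited by their low counts.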
